A study of Drosophila melanogaster with 3 samples.

Results

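Binding of the heterochromatin protein Su(var)3-7 was described around 10 segmentation genes of Drosophila melanogaster. These were the gap genes hb, Kr, kni, gt and tll and the pair-rule genes eve, ftz, h, run and odd, 10 of 13968 annotated protein-coding genes. They were chosen by name, not by a measured value. The window of a gene was its body and 10 kb on either side, and a region belonged to a window when its summit, the position of highest signal, lay inside. The chromatin came from 1 group of whole embryos, of mixed sex and aged 0 to 24 h, in 3 biological replicates. The flies were a transgenic line that stably expressed Su(var)3-7 with GFP at its C-terminal end, 1 donor line for all replicates, and chromatin was precipitated with an antibody against GFP; no promoter is stated for the fusion in the labels used, and control and mock precipitations were not analysed here. The files were ranked region lists on genome build dm6: 4055 thresholded peaks, 30000 relaxed regions for the pooled replicates and 30000 for each replicate. A region's signal is the authors' own value on an unstated scale (median 52.9 in the pooled list and 119 for the weakest thresholded peak), and read depth is unknown.

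Segmentation genes divide the fly embryo along its length. Gap genes are switched on by maternal gradients in broad domains of the early embryo, and pair-rule genes, read out from them, are transcribed in stripes before and during gastrulation. Many of them are known to be controlled by enhancers, stretches of DNA that bind several factors, scattered through the flanking DNA as well as at the promoter. Su(var)3-7 is a zinc-finger protein named for its effect on the silencing of genes placed next to heterochromatin, the compact and repeat-rich chromatin around centromeres. In whole embryos, binding in few cells and weak binding in many cells cannot be told apart.

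The strongest regions in the windows of odd, hb, ftz and h lay in DNA between genes, and 5 of them are printed, 100 bases to each side of the summit, because the results turn on them. The sequences are from the RefSeq genome on dm6, plus strand, 5′ to 3′. Capitals mark matches, on either strand, to any of 8 motifs searched or to the run CAGTGCAC, and the h sequence holds none of them. The first 2 are the thresholded odd peaks, and the other 3 are the strongest relaxed regions of their genes.
odd chr2L:3594130-3594330: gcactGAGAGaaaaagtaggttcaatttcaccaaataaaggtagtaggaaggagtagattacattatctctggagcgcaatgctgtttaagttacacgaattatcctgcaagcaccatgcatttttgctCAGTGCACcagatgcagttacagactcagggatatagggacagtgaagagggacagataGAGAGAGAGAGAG
odd chr2L:3598575-3598775: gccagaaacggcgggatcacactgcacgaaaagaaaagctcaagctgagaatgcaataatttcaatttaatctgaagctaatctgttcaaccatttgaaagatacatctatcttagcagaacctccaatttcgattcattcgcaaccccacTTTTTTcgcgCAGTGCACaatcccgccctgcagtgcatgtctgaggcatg
hb chr3R:8707277-8707477: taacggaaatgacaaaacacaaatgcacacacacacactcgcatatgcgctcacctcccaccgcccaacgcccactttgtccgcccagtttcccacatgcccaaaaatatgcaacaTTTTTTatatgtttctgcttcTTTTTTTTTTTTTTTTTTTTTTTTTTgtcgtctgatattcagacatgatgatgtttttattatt
ftz chr3R:6869437-6869637: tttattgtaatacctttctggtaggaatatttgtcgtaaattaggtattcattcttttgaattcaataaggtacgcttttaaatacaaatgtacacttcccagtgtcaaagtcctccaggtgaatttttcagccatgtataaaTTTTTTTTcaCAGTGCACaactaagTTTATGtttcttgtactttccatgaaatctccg
h chr3L:8683866-8684066: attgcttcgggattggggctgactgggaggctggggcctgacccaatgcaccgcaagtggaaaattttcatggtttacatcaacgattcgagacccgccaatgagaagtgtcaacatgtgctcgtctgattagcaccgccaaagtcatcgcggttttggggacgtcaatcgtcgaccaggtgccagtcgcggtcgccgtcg

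Few of the 10 genes had a thresholded peak nearby. Thresholded summits lay in the windows of 2 members, odd with 2 and eve with 1, which is 20% of the members (exact 95% binomial interval 2.52 to 55.6%, covering the counting of genes only), beside 59.3% of all protein-coding genes. No member had a thresholded summit within 500 bp of one of its own start sites (upper limit 30.8%), beside 18.4% of all genes. Relaxed regions of the pooled list were found in 9 of the 10 windows, beside 86.3% of all genes, and at an own start site of 5 members, beside 51.9% of all genes. The relaxed list holds background by its makers' description. The member counts for thresholded peaks were thus below the shares over all genes, and those for relaxed regions were close to them.

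The same count was read in each replicate from its strongest 4055 regions, as many as there were thresholded peaks. In replicate 1 these fell in the windows of 2 members, eve and h, beside 60.2% of all genes. In replicate 2 they fell in those of 3 members, hb, eve and odd, beside 59.3% of all genes. In replicate 3 they fell in those of 2 members, eve and odd, beside 58.8% of all genes. Over the replicates the share was 23.3 ± 5.77% of members and 59.5 ± 0.717% of all genes (SD, n = 3). The replicates read the same 10 genes, so this spread does not cover the counting of genes. On the same measure, genes with no other gene starting in the window stood at 23.5%, and those with at most 2 at 37.2%. eve stood in the list of every replicate, odd in that of 2, and hb and h in that of 1 each. When regions had to be among the strongest of both remaining replicates, 1 member was left without replicate 1, none without replicate 2 and 1 without replicate 3, beside 49.9%, 49.9% and 51% of all genes.

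**Figure D1:**
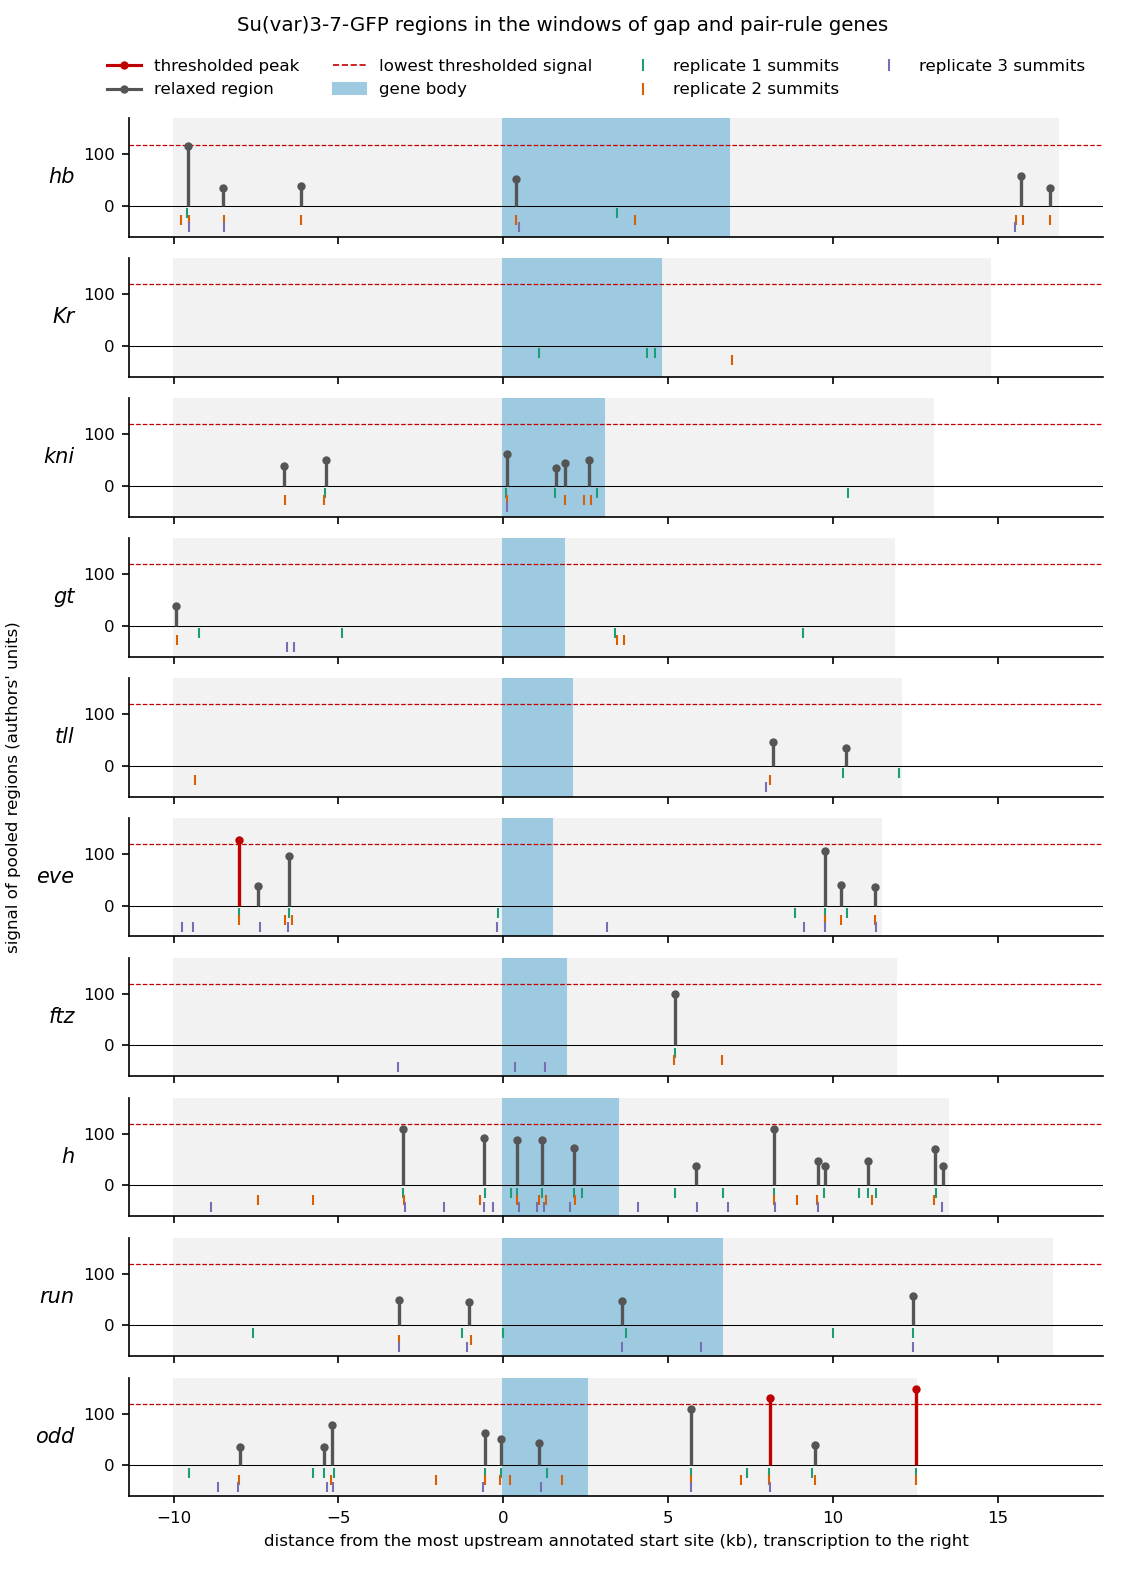
Signal of pooled relaxed regions (authors' units, vertical axis) against distance from the most upstream start site of each gene in the direction of transcription (horizontal axis, kb), 1 panel a gene. The gene body is shaded, thresholded peaks are red, other relaxed regions are grey, and regions of each replicate are ticks below. The 3 thresholded peaks lie in the flanks of odd and eve, with signals between 127 and 149, and Kr has no pooled region.

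The members also had fewer neighbouring genes than other genes, and the part of this in the counts above was not tested. In 7 of the 10 member windows no other protein-coding gene started, beside 4.73% of all genes, and the median number of other genes starting there was 0 for members and 5 for all genes. Among the 660 genes with no other start in the window, 22.7% had a thresholded summit there and 4.24% had one at a start site. Of the 7 members without such a neighbour, 1 (odd) had a thresholded summit in its window and none had one at a start site. All 10 members had at most 2 such neighbours, and among the 3044 genes with at most 2 the shares were 36.7% and 9.66%. Pooled relaxed regions lay in the windows of 59.8% of genes with none and 70.0% with at most 2, beside 90% of members. The share of neighbours was looked at after the counts were seen.

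**Figure D2:**
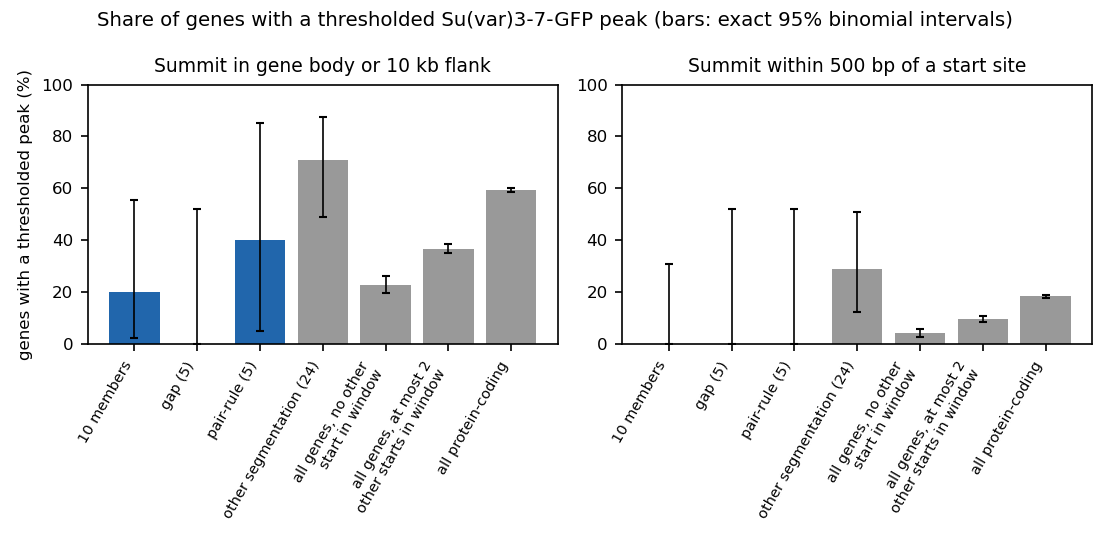
Percent of genes (vertical axis) with a thresholded summit in the window or at an own start site, for the 10 members, genes with few or no neighbours, and all protein-coding genes (horizontal axis). The members stand at 20% and 0%, against 22.7% and 4.24% of genes with no other gene starting in the window and 59.3% and 18.4% of all genes.

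Per length, thresholded summits were also fewer around the members than around all genes. The 10 windows covered 234.7 kb and held 1.28 thresholded summits per 100 kb (exact Poisson interval 0.26 to 3.74), against 3.31 per 100 kb in the windows of all protein-coding genes. The member value rests on 3 summits, and its interval includes the value of all genes. With regions among the strongest of both remaining replicates, the member value was 0.852 without replicate 1, 0 without replicate 2 and 0.426 without replicate 3, and with 20 kb flanks it was 2.30. Pooled relaxed regions had 20.5 per 100 kb in the member windows (15.1 to 27.1), against 23.9 in those of all genes. Away from start sites, by more than 500 bp, the values were 0.93 and 1.79 per 100 kb for thresholded summits. For relaxed regions they were 18.0 and 19.1. DNA within 500 bp of a start site made up 7.90% of the member windows and 12.8% of the windows of all genes. In the replicates the strongest regions came to 1.28, 1.70 and 0.85 per 100 kb of the member windows, 1.28 ± 0.43 (SD, n = 3), against 3.30 in those of all genes in each replicate.

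The odd gene, which encodes a zinc-finger transcription factor, lies at chr2L:3604224-3606756 on the minus strand. It held the strongest region of any member by pooled signal. On the scale of the single replicates eve was higher in replicates 1 and 3, and h and ftz were also higher in replicate 1. The 2 thresholded peaks of odd lay beyond its 3′ end, in intergenic DNA, and odd was the gene with the nearest protein-coding start site to both. The outer summit, at chr2L:3594230, had a signal of 149 and rank 2820 of 30000 in the pooled list, 12526 bp from the start site (distances are to the gene's own nearest start site) and only 6 bp inside the edge of the window. Relative to the median of each replicate's list, a scale used for all replicate values here, it reached 1.58, 2.81 and 2.25 times in replicates 1, 2 and 3, a mean of 2.21 ± 0.62 (SD, n = 3). Replicate 2 was highest, and in replicate 1 the region stood outside that replicate's strongest 4055, at rank 6273. In replicate 3 it ranked 2972, but its summit fell just outside the window and was not counted there. The inner summit, at chr2L:3598675, had a signal of 131 and rank 3472, and reached 1.83, 2.35 and 1.94 times the median, a mean of 2.04 ± 0.28. It was the steadier of the pair. A relaxed region at chr2L:3601053, with signal 110 and rank 4539, followed closer to the gene, 5703 bp from the start site, at 1.70, 1.83 and 0.88 times. The 3 regions thus stood in a row downstream, from 3171 to 9994 bp beyond the gene body. In all, odd had 10 pooled regions and 12, 12 and 8 regions in the replicates, and 5 of the 10 were found in all 3 replicates.

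The eve gene, for a homeodomain protein, lies at chr2R:9979319-9980795 on the plus strand, and its 6 pooled regions were all nearer to other genes' start sites. Its only thresholded peak, signal 127 and rank 3627, had its summit 65 bp before the start of CG12134 and 8026 bp before that of eve. That region reached 2.59 and 2.21 times the median in replicates 1 and 2, and replicate 3 listed no summit within 200 bp of it. The strongest region of replicate 3 in the window, at 2.62 times, lay instead at the start of TER94, an ATPase gene, where the pooled signal was 106 and replicates 1 and 2 had 1.71 and 1.26 times. eve was thus counted in every replicate through its neighbours, and not through 1 shared region. At the start site of eve itself the pooled list held no region, while replicate 1 had one at 1.67 times with its summit at -152 bp, and replicate 3 one at 1.51 times at -191 bp, where minus is upstream. Neither was among the strongest 4055.

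Just under the threshold stood hb, h and ftz, each with a strongest pooled signal of 101 to 116. The hb gene, for a zinc-finger factor, lies at chr3R:8690980-8697822 on the minus strand, and its strongest region had signal 116 and rank 4197. It lay 9555 bp before the start site and reached 1.82, 2.15 and 1.78 times the median, 1.92 ± 0.20 (SD, n = 3). Only replicate 2 had it among its strongest 4055, and the nearest start site to it was that of CG8112. ftz, another homeodomain gene, at chr3R:6864324-6866244 on the plus strand, had a single pooled region. That region, 5213 bp downstream of its start site, had signal 101 and rank 5213, and reached 1.86 and 1.98 times in replicates 1 and 2. Replicate 3 had no summit within 200 bp of it.

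The h gene (listed as hry in the annotation), for a basic helix-loop-helix repressor, had the most regions of any member. It lies at chr3L:8675759-8679253 on the plus strand, with 12 pooled regions and 15, 13 and 15 in the replicates, and h had the nearest start site to all 12. Of these, 7 were found in all 3 replicates and 7 lay above the median signal of the list. The strongest, 8011 bp downstream of the start site, had signal 110 and rank 4516, and reached 2.03, 1.27 and 1.77 times, 1.69 ± 0.38. A second, 3044 bp upstream, had signal 109 and reached 1.95, 1.83 and 1.54 times, 1.77 ± 0.21. Another, 596 bp upstream, had signal 92.3 and reached 2.10, 1.45 and 1.15 times. Replicate 1 alone placed h regions, 2 of them, among its strongest 4055. At 12, h had more pooled regions than 74.1% of all protein-coding genes, and odd at 10 had more than 62.7%.

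The other 5 members had weaker or no regions. kni, a nuclear-receptor family gene at chr3L:20692330-20695378 on the minus strand, had 6 pooled regions and 5, 6 and 1 in the replicates. Its strongest, signal 60.7 and rank 11865, lay 103 bp downstream of the start site at 0.75, 0.93 and 1.45 times the median. run, for a Runt-domain protein at chrX:20690670-20697321 on the plus strand, had 4 pooled regions, the strongest at signal 56.0, 8653 bp downstream of a start site. tll, another nuclear-receptor family gene, active at the embryo's ends, at chr3R:30852315-30854400 on the plus strand, had 2 pooled regions with signals of 45.2 and 34.0. Near the first of these, replicate 2 had a region at 2.11 times and rank 4142, just outside its strongest 4055, and replicate 3 had one at 1.23 times, just over 200 bp from the pooled summit. gt, for a leucine-zipper factor at chrX:2427113-2428967 on the minus strand, had 1 pooled region, of signal 38.4 and only 79 bp inside the window's edge. Kr, for a zinc-finger factor at chr2R:25226611-25231394 on the plus strand, had none in the pooled list. Replicate 1 listed 3 regions around Kr, replicate 2 listed 1 and replicate 3 none, the highest at 0.88 times.

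**Figure D3:**
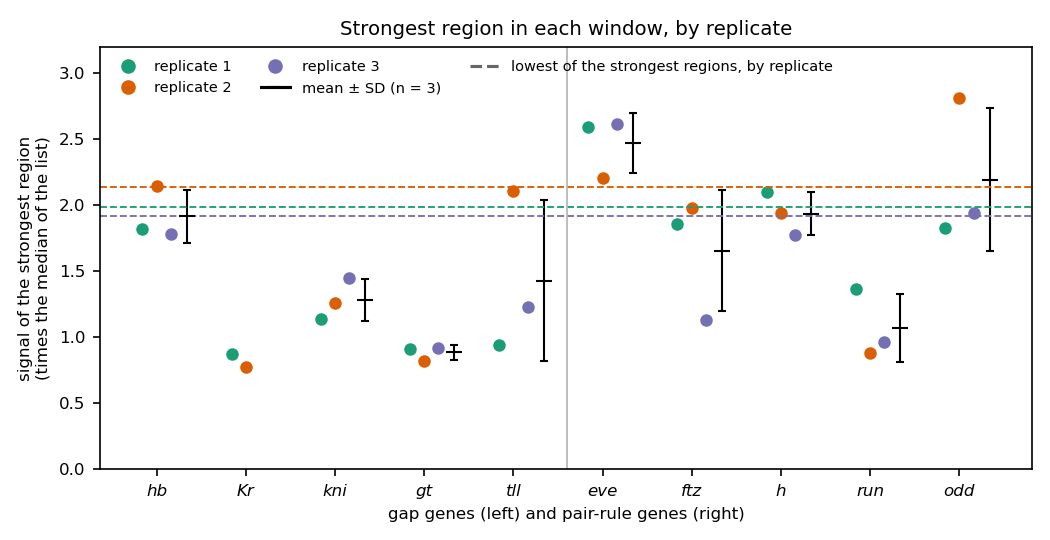
Strongest region in each member's window (horizontal axis, gap genes left) in each replicate, as signal over the median of that replicate's list (vertical axis, ratio), points for replicates and bars for their mean, with a dashed line for the lowest of the strongest 4055. eve is highest with a mean of 2.47 and odd follows with 2.19, while Kr and gt stay below 1.

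Ordered by the strongest region inside the window in each replicate, whichever it was, the members formed a gradient rather than separate groups. eve came to 2.47 ± 0.23 times the median (SD, n = 3), odd to 2.19 ± 0.54, h to 1.94 ± 0.16 and hb to 1.92 ± 0.20. ftz followed at 1.66 ± 0.46, tll at 1.43 ± 0.61, kni at 1.28 ± 0.16, run at 1.07 ± 0.26 and gt at 0.885 ± 0.054, with Kr unranked because replicate 3 listed none there. The SD ranges of neighbours in this order overlapped for every adjacent pair. Read replicate by replicate, run stood above gt in all 3, at 1.36, 0.880 and 0.961 times against 0.913, 0.822 and 0.920. Every other adjacent pair changed order in some replicate, so the order between those neighbours is not fixed by these 3 replicates. eve and gt, at the ends, differed in every replicate, and so did h and gt. The lowest of the strongest 4055 regions stood at 1.99, 2.14 and 1.92 times in replicates 1, 2 and 3. In the pooled list the median over members of the strongest signal was 80.7, against 146 over all protein-coding genes, 81.9 over genes with at most 2 other genes starting in the window and 53.1 over genes with none. Most members, 7 of 10, have no such neighbour. The members' median lay below that of all genes and above that of genes without a neighbour, and the part of neighbours in this was not tested. The highest member, odd, had a stronger region than 50.8% of all genes, eve than 43.7%, hb than 39.6% and gt than 14.9%.

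At their own start sites the members had relaxed regions about as often as all protein-coding genes, all of them modest. In the pooled list 50% of members had one, beside 51.9% of all genes. The share was lower, 36.1%, in genes with at most 2 other genes starting in the window, and 27.7% in those with none. The part of neighbours in this was not tested. Regions lay within 500 bp of an own start site in 6 members in replicate 1, 4 in replicate 2 and 6 in replicate 3, beside 51.4%, 51.6% and 50.4% of all genes. None of these was among the strongest 4055 of its replicate, which reached a start site in 18.3 ± 0.538% of all genes (SD, n = 3). Only hb, kni and h had a start-site region in every replicate. At h it reached 1.53, 1.93 and 0.99 times the median, 1.48 ± 0.47. At kni it reached 0.75, 0.93 and 1.45 times, 1.04 ± 0.36. At hb the regions lay at different start sites and are not averaged: replicate 1 had one at 1.01 times by the inner of its 2 start sites, and replicates 2 and 3 had one at 1.24 and 1.08 times by the outer. run and odd had one in 2 replicates and in the pooled list, eve in replicates 1 and 3, ftz in replicate 3 alone, and Kr, gt and tll in none.

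The nearest thresholded summit to a member's own start sites was 8026 bp away at eve and 8081 bp away at odd. At h it was 13917 bp away, at gt 15015 bp, at kni 16237 bp and at hb 22724 bp. At the other 4 members it was more distant, from 34873 bp at tll to 45528 bp at ftz, with run at 35502 bp and Kr at 43433 bp. The median over the 10 members was 19481 bp, against 7869 bp over all protein-coding genes, 19303 bp over genes with at most 2 other genes starting in the window and 33081 bp over genes with none.

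Gap genes as a class had fewer regions than pair-rule genes in every replicate. In the windows of the 5 gap genes there were 16, 21 and 8 regions in replicates 1, 2 and 3, and in those of the 5 pair-rule genes 40, 35 and 40. Per length this was 12.6 ± 5.53 per 100 kb around gap genes and 33.0 ± 2.49 around pair-rule genes (SD, n = 3), beside 23.9 ± 0.0343 around all genes. The replicate totals of the classes did not overlap, but their spread does not cover that between genes. Gap genes had no thresholded summit, and their windows held 0, 1 and 0 of the replicates' strongest regions, the 1 being at hb. Pair-rule windows held 3, 3 and 2. Without h and odd, the other 3 pair-rule genes had 18.6, 14.3 and 24.3 regions per 100 kb in replicates 1, 2 and 3, against 13.5, 17.7 and 6.74 for gap genes, so the order held in replicates 1 and 3 and turned round in replicate 2. These genes were set aside after their counts were seen. Of single genes, ftz had 1 pooled region and run 4, while kni and hb had 6 each, so the classes overlapped by gene. h and odd together held 22 of the 48 pooled regions in the 10 windows (45.8%), at a median signal of 66.4, against 46.6 for the 26 of the other 8 members. With 5 genes a class, chosen with earlier results known, no test was made.

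**Figure D4:**
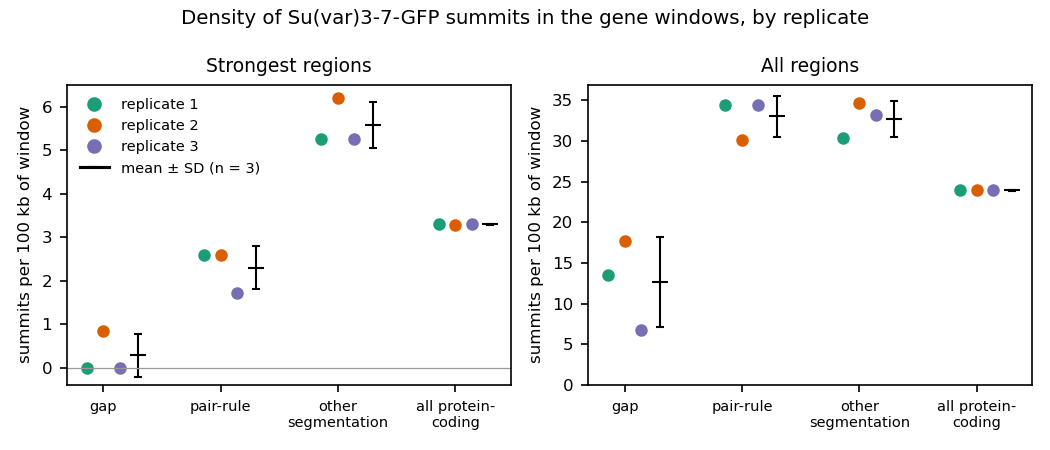
Regions per 100 kb of window (vertical axes) in the 3 replicates, for the strongest 4055 regions and for all 30000 regions of each list, with points for replicates and bars for mean and SD. All regions average 12.6 around gap genes, 33.0 around pair-rule genes and 23.9 around all protein-coding genes.

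Other genes of the segmentation pathway, listed together with broad early regulators and relatives of odd, gave a further reference. Where the 10 members had a thresholded summit in 2 windows and at 0 start sites, 24 listed genes had one in 17 windows (70.8%, exact interval 48.9 to 87.4%) and at 7 start sites (29.2%, 12.6 to 51.1%), beside 59.3% and 18.4% of all protein-coding genes. Both intervals include the share over all genes. Maternal genes (bcd, cad, nos, osk, tor) had one in 5 of 5 windows and broad early regulators (zld, D, Trl, cic, gro) in 5 of 5. Of the maternal genes only bcd had the nearest start site to a summit. All summits around cad, nos, osk and tor, and those around zld, were nearest to other genes' start sites. The summit counted at the nos start site lay 385 bp from it and 41 bp from that of another gene. Terminal, head and gap-like genes had one in 2 of 7, btd and oc, and other pair-rule genes in 2 of 4, slp1 and slp2, which share the same 2 summits. The odd relatives sob, drm and bowl had one in 3 of 3. Beside the 149 in the window of odd, the strongest signals were 1077 in the window of Trl, which encodes GAGA factor, 684 in that of the corepressor gene gro, 562 in those of slp1 and slp2, 515 in that of nos (nanos), 463 in that of bowl, 300 in that of cic and 280 in that of btd. As at eve, some belong to positions nearer to other genes: the start site nearest to the summit was that of CG42359 for nos and nej for btd. For Trl the summit lay inside the gene body, 1513 bp upstream of a Trl start site, with a start site of CG42507 at the same distance. The windows of these 24 genes were longer than those of the 10, with medians of 26089 and 22791 bp and maxima of 71173 and 26843 bp. They also held more other genes' starts, with a median of 0 for the 10 members and 1.5 for the 24. The median was 3 for maternal genes and 3 for broad regulators, against 1 for gap-like and 1 for other pair-rule genes, and its part in the counts by class was not tested.

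The 48 pooled regions in the member windows were weaker than the list as a whole but about as repeatable. Their median signal was 49.5, against 52.9, and 20 of 48 (41.7%) lay above the list's median. Thresholded peaks made up 3 of 48 (6.25%), against 13.5% of the pooled list. Of the 48, 16 (33.3%) had a summit within 200 bp in all 3 replicates, 18 (37.5%) in 2 and 14 (29.2%) in 1, against 36.4%, 36.2% and 24.5% of the pooled list. The 22 regions of h and odd had a median signal of 66.4, and 12 were found in all 3 replicates. The 26 of the other 8 members had a median of 46.6, and 4 were found in all 3. This split was made after the counts were seen. By place, 31 of the 48 (64.6%) were intergenic, against 15.7% of the pooled list, and 1 (2.08%) lay in an intron, against 33.5%. At start sites there were 9 (18.8%), against 29.2%, and in coding exons 5 (10.4%), against 16.8%, with 1 each in a 3′ UTR and a non-coding gene. The windows add 20 kb of flank to short genes, and the share of their DNA in each place was not taken into account. None of the 48 lay in an annotated mobile element, the kind of repeat common in heterochromatin, against 2.11% of the pooled list. A member had the nearest protein-coding start site to 34 of the 48 (70.8%).

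Motifs of early regulators were searched in the 201 bases around each summit, on both strands. CAGGTAG, bound by the early activator Zelda, was in 2 of 48 member regions (4.17%), against 1.30% of all pooled and 0.888% of all thresholded regions. Both matches lay in the window of odd, in relaxed regions of rank 15705 and 27454, and no other member had one. TTTATG, the Caudal motif, was in 12 (25%), against 16.1% and 20.1%. TAATCC, the Bicoid motif, was in 3 (6.25%), against 5.51% and 5.65%. The promoter motif TATCGATA was in none, against 2.03% and 4.86%, and the promoter string GGTCACACT in none, against 1.14% and 2.39%. GAGAG was in 10 (20.8%), against 25.4% and 23.8%, CAGCTG in 7 (14.6%), against 11.6% and 11.0%, and TTTTTT in 19 (39.6%), against 29.9% and 43.1%. Any of these matches may overlap one another. The median GC content was 47.3% in member regions, against 44.3% in all pooled and 38.3% in thresholded regions. With 48 regions, a single match shifts a share by 2.08 percentage points, and regions of 1 window share their surroundings.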

How the data were processed

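ChIP-seq region lists for 3 biological replicates of 1 group, a Su(var)3-7-GFP embryo collection, were used on dm6. Per the file headers and labels, the authors deposited relaxed regions for each replicate and for the replicates pooled, and a thresholded list made by the irreproducible discovery rate. No label or header used here names the aligner, the caller or the threshold, so these are not given in the sources used. The signal values are the authors' own per region. They were used for ranks within a list, and between replicates only after division by the list's median. Depth is unknown, so intervals cover counting only. The dm3 lists (5) were not used.

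Summits are column 2 plus column 10, given 1-based. Genes and start sites (19630 of 13968 protein-coding genes, every transcript start counted) came from Ensembl release 115, BDGP6.54. The symbol h was matched through a RefSeq synonym, and RefSeq placed all 10 members identically. A summit of a replicate matched a pooled one within 200 bp. Shares over all genes are not independent, because neighbours share summits. A single group allows no test between conditions, so none was made. The scripts were tested on simulated lists. No 2 replicates shared an identical region.

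The members, gene lists and motifs were chosen with earlier results of these data known. Named genes were all members, the nearest gene of each thresholded summit in their windows, and up to 8 other segmentation genes by signal. CG8112, TER94, CG42507, CG42359, nej and genes given in list counts were named after their values were seen. Python 3.11.15, NumPy 2.4.6, pandas 2.3.3, SciPy 1.17.1 and matplotlib 3.10.9 were used.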

Additional observations from a re-analysis of the deposited data

How the results depend on the processing

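Of 56 alternatives, 40 moved a value by more than 1.5 times (for the median signal and the pair-rule density, by more than 1 SD over replicates) or to or from 0, and 16 moved it less or not at all; a setting that could not give a value, the median signal for gene bodies only, is left out. The count of 0 members with a thresholded summit at an own start site stayed 0 in every alternative. Only leaving out each replicate in turn could have raised it. A distance of 1 kb and peak intervals could not, since the nearest thresholded summit lay 8026 bp from an own start site, at eve. The other 5 could not raise it by construction. The count of 2 members with a thresholded summit in the window was 0 for gene bodies only, 0 with 5 kb flanks, 6 with 20 kb flanks and 0 with the stronger 2027 peaks, beside 11.2%, 45.7%, 74.3% and 41.2% of all genes. It was 1 among members with no other gene starting in the window (an alternative added after the data were seen), and 0 to 1 without each replicate in turn. The 3 thresholded summits became 0, 0, 10 and 0 in the same 4 settings, and 0 to 2 without a replicate. Their density of 1.28 per 100 kb became 0, 0, 2.30 and 0, and 0 to 0.852 without a replicate. Those whose nearest start site was a member's, 2, became 0, 0, 4 and 0, and 0 to 2 without a replicate, and 1 with start sites of genes of every biotype. The 48 pooled regions became 10, 20 and 97 for gene bodies, 5 kb and 20 kb flanks, and 20 in the stronger part of the list. Members reached by a replicate's strongest regions, 2, 3 and 2, became 0, 0 and 0 with fewer regions (the stronger 2027) and 5, 6 and 5 with 2 times as many. The median strongest signal of 80.7 became 50.02 with 5 kb flanks and 141 with 20 kb flanks. Regions per 100 kb around pair-rule genes, 33.0 on average, became 19.03 without h and odd, added after the data were seen. The causes were not tested; wider flanks take in more neighbours by construction. The count of 2 rests on odd, whose second summit lies well inside the window, and on eve, through a summit at a neighbour's start site. Without replicate 2 no member kept a shared strong region. No paired analysis was possible because the labels give a single group, so replicate numbers pair no samples.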

Other observations

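The run CAGTGCAC was read in the printed sequences after their values were known, as 1 of 6 strings tried, so its counts are a description without a test. It stood in both thresholded odd peaks and in the ftz region, 3 of the 48 member regions (6.25%) and 3 of the 11 members' regions ranked up to 6000. Among all 6000 pooled regions of those ranks 143 (2.38%) held it, among all thresholded peaks 104 (2.56%), and among windows of equal length 1000 bp to one side of those peaks 33 (0.81%). In the whole pooled list 1.41% held it.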
